A study of Homo sapiens with 10 samples.

Results

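The genes described here encode the TGF-beta and BMP signalling pathway, and were taken by symbol from the deposited gene tables: TGF-beta, activin, BMP and GDF ligands without GDF15, their receptors, the SMAD proteins, BMP antagonists such as NOG and GREM1, the protease BMP1 and the ID genes. The rule found 53 of 23243 genes, and used no measured value. RNA-seq was carried out on 3 human cancer cell lines: the leukemia line K562, the osteosarcoma line U-2 OS and the neuroblastoma line SK-N-SH. PcTF, the synthetic protein under study, joins a Polycomb chromodomain, which binds the silencing mark H3K27me3, to the red fluorescent protein mCherry and the activation domain VP64. In each line, 1 library came from cells transfected with a PcTF plasmid and 1 from mock-transfected cells that received the vehicle only, with collection at most 48 h after transfection for K562 and at most 96 h for the other lines. Only part of the cells in a transfected culture carried the red marker, so a value is an average over cells with and without PcTF. The study reported that this part fell with time, to a small minority when last detected. A further set used U-2 OS derivatives with a chromosomal transgene under a doxycycline-inducible promoter, treated with doxycycline at 1 µg/mL for 96 h: 2 libraries of U2OS-PcTF, and 1 library of U2OS-dTF, whose transgene lacks the chromodomain. For that set the deposited table gives the U2OS-dTF library and an authors' mean over 3 PcTF libraries, which are both U2OS-PcTF libraries and the PcTF-transfected U-2 OS library.

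TGF-beta family ligands are secreted dimers that bring a type II receptor kinase together with a type I receptor kinase. The type I receptor then phosphorylates receptor SMADs, SMAD2 and SMAD3 downstream of TGF-beta and activin, and SMAD1, SMAD5 and SMAD9 downstream of BMPs, which enter the nucleus with SMAD4. The inhibitory SMAD6 and SMAD7 oppose the signal, and the ID genes, which encode inhibitors of basic helix-loop-helix transcription factors, are classical BMP targets. In bone, BMPs and TGF-beta guide osteoblast differentiation, and in the erythroid lineage activin-class ligands act on late maturation.

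Levels are in FPKM, fragments per kilobase of transcript scaled to the number of mapped reads. The steps between low values put the depth of the 7 libraries with their own column between 4.28e+06 and 7.39e+06 reads. Every column but the authors' mean is 1 library, so no difference below has a replicate check and no test across samples was possible. A gene was counted as higher or lower when it reached 1 FPKM in either column and log2((PcTF + 0.1)/(control + 0.1)), with 0.1 FPKM added to both, was at least 2-fold from 0. Ranges given after a log2 value are exact 95% binomial intervals of the ratio of estimated reads, and cover counting error only, since PCR copies are not independent molecules. In a bulk sample, fewer cells of a type and less RNA per cell cannot be told apart.

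Promoter sequences of 6 members are shown because these genes carry the U-2 OS results below: BMP4, SMAD9, ID2 and ID4 were lower with PcTF, and TGFB1 and SMAD6 were higher. Each is the 250 bases before the transcription start in the RefSeq table (GRCh38.p14), written 5′ to 3′ on the strand of the gene, and capitals mark GGCGCC, a GC-rich SMAD-binding motif, and CAGAC or its other-strand form GTCTG, a classical SMAD motif. The windows are chr14:53955051-53955300 on the minus strand (BMP4), chr13:36920239-36920488 on the minus strand (SMAD9), chr2:8681806-8682055 on the plus strand (ID2), chr6:19837120-19837369 on the plus strand (ID4), chr19:41353923-41354172 on the minus strand (TGFB1) and chr15:66701986-66702235 on the plus strand (SMAD6).
BMP4: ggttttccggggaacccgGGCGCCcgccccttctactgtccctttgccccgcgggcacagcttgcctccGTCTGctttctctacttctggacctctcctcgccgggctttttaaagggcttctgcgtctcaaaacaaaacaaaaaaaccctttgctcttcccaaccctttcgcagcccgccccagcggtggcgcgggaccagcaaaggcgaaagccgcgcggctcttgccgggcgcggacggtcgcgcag
SMAD9: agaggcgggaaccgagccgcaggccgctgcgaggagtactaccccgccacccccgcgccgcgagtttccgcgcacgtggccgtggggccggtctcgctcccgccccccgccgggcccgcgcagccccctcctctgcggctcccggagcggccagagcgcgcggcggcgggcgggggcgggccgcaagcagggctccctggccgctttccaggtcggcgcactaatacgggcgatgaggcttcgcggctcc
ID2: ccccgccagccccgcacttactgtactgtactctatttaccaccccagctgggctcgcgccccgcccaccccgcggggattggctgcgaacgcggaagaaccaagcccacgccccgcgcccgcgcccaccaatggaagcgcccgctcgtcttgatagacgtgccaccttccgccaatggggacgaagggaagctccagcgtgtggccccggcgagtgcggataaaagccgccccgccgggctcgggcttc
ID4: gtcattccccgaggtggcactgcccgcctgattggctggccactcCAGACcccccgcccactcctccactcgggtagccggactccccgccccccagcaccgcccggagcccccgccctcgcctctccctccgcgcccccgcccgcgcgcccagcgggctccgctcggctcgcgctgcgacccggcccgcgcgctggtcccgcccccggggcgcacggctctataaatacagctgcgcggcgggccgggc
TGFB1: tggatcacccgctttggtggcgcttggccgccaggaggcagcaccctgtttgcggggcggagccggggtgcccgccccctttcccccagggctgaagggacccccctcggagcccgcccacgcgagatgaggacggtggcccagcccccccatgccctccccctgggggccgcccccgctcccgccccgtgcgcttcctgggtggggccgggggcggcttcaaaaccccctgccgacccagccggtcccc
SMAD6: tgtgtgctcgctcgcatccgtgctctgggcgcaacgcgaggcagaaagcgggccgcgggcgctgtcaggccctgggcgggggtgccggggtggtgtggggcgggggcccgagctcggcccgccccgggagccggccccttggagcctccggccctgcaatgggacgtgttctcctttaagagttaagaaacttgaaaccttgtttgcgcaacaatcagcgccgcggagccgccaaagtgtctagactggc

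Of the 6 windows, 1 held GGCGCC (BMP4) and 2 held CAGAC (BMP4 and ID4). The table had promoters for 44 of the 53 members, of which 11 (25%) held GGCGCC against 16.1% of all 27305 promoters, and 14 (31.8%) held CAGAC against 37.8%. Member promoters were GC-rich, with a median GC of 68.2% against 58.0% over all promoters. A match here is a match of letters and not a measured binding site.

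The 3 lines used different parts of the pathway. In the mock library of K562 18 of 53 members reached 1 FPKM, in that of SK-N-SH 27 and in that of U-2 OS 35, which is 34%, 50.9% and 66% of the members against 43.8%, 48.5% and 49.1% of all genes. Across all columns, 38 members reached 1 FPKM somewhere and 14 reached it everywhere: ACVR1, ACVR1B, ACVR2B, BMPR1A, BMPR2, GDF11, ID1, ID3, SMAD2, SMAD3, SMAD4, SMAD5, TGFB1 and TGFBR1. The other 15 stayed under 1 FPKM in every column: ACVR1C, ACVRL1, BMP3, BMP8A, BMP8B, BMP10, BMP15, GDF2, GDF3, GDF5, GDF6, GDF7, GDF10, INHBB and INHBC. Of these, BMP15 and GDF2 were listed at 0 throughout, and BMP8A and BMP8B are near-identical copies whose reads may be split between them. Members listed at 0 in the K562 mock library that reached 1 FPKM elsewhere numbered 13, and 0 reads there allow up to 0.113 to 0.38 FPKM depending on gene length.

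**Figure D1:**
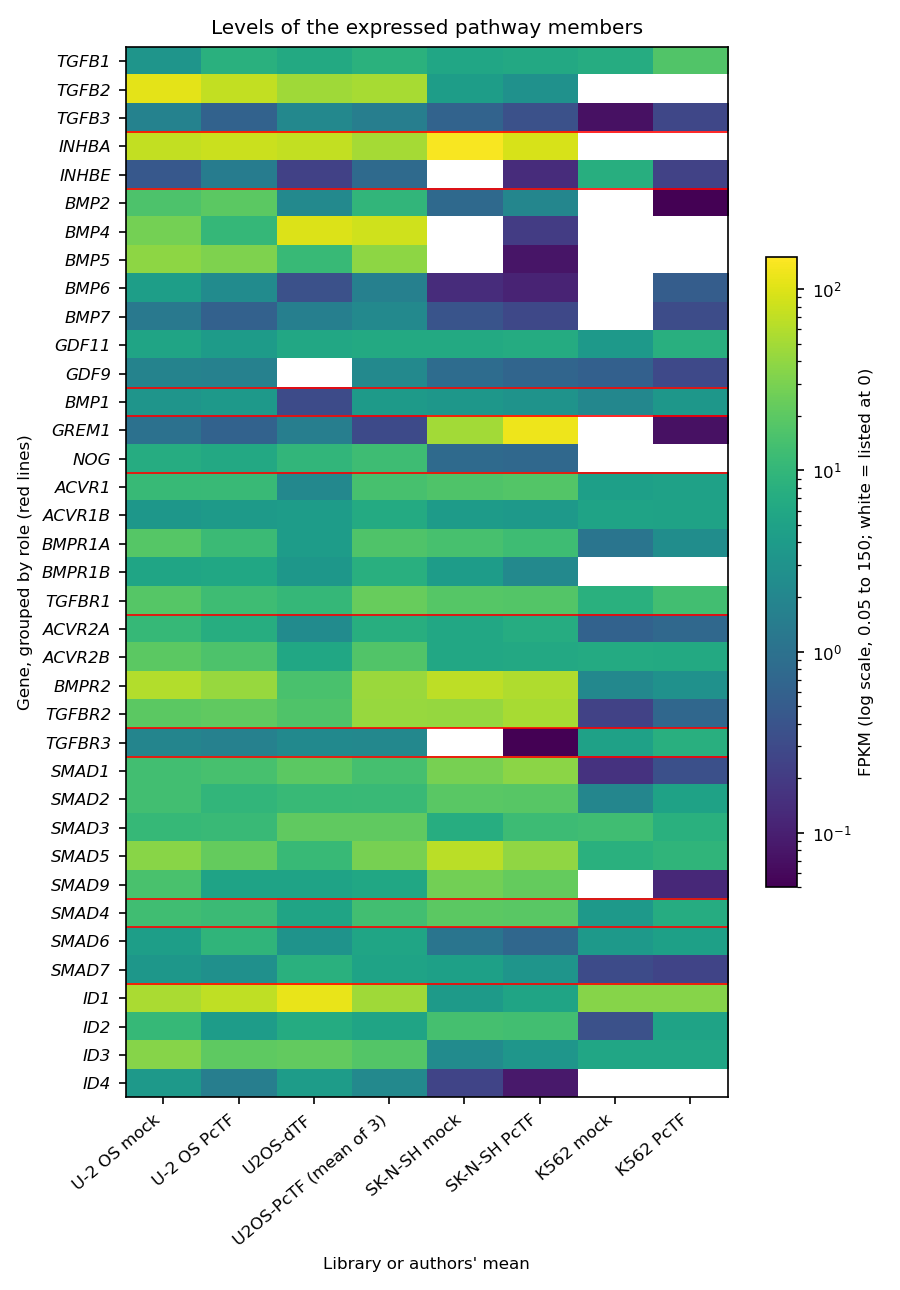
Levels of 37 of the 38 members that reached 1 FPKM in any column, in rows grouped by role, across 7 libraries and the authors' mean of 3 PcTF libraries; colour is FPKM on a log scale and white marks a value listed at 0. TGFB2, INHBA, BMP2, BMP4, BMP5 and NOG are white in the K562 mock column, and BMP4 is brightest in the U2OS-dTF and U2OS-PcTF columns.

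TGFB2, a TGF-beta isoform, was the main TGF-beta transcript of U-2 OS. Its level in mock U-2 OS was 109 FPKM. Mock SK-N-SH had 4.28 FPKM, and K562 was listed at 0. TGFB1, an isoform of many cell types, blood cells included, stood at 7.17 FPKM in K562, 5.69 FPKM in SK-N-SH and 3.28 FPKM in U-2 OS. TGFB2 thus made up 95.6% of the summed TGF-beta FPKM of U-2 OS, and 40.3% of that of SK-N-SH, while TGFB1 made up 99.0% in K562. INHBA, the activin A chain, was at 139.5 FPKM in SK-N-SH, at 72.3 FPKM in U-2 OS and listed at 0 in K562, where INHBE, the activin E chain, reached 7.65 FPKM. BMP ligands were mostly a U-2 OS feature: BMP2, BMP4, BMP5, BMP6 and BMP7 summed to 87.98 FPKM there, against 1.32 FPKM for SK-N-SH and 0 FPKM for K562.

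Receptor levels were ordered differently. Type II receptors summed to 9.60 FPKM in K562 mock cells, 122.2 FPKM in SK-N-SH and 110.6 FPKM in U-2 OS. BMPR2, the BMP type II receptor, supplied 21.9%, 55.4% and 54.3% of these sums, and the activin receptor ACVR2B supplied 69.1%, 4.96% and 18.3%. TGFBR2, the TGF-beta type II receptor, was at 0.241, 42.3 and 19.7 FPKM in the same order. K562 thus held little TGFBR2 or BMPR2, and its type II pool was mainly ACVR2B. TGFBR3, the coreceptor betaglycan, was at 4.94 FPKM in K562 and 1.91 FPKM in U-2 OS and was listed at 0 in SK-N-SH. The BMP-class SMADs (SMAD1, SMAD5 and SMAD9) made up 82.1% of receptor SMAD FPKM in SK-N-SH, 72.7% in U-2 OS and 35.4% in K562, where SMAD3 alone made up 55.9%. Of the ID genes, ID1 held 51.7% of the sum in U-2 OS and 85.2% in K562, and ID2 held 68.2% in SK-N-SH.

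**Figure D2:**
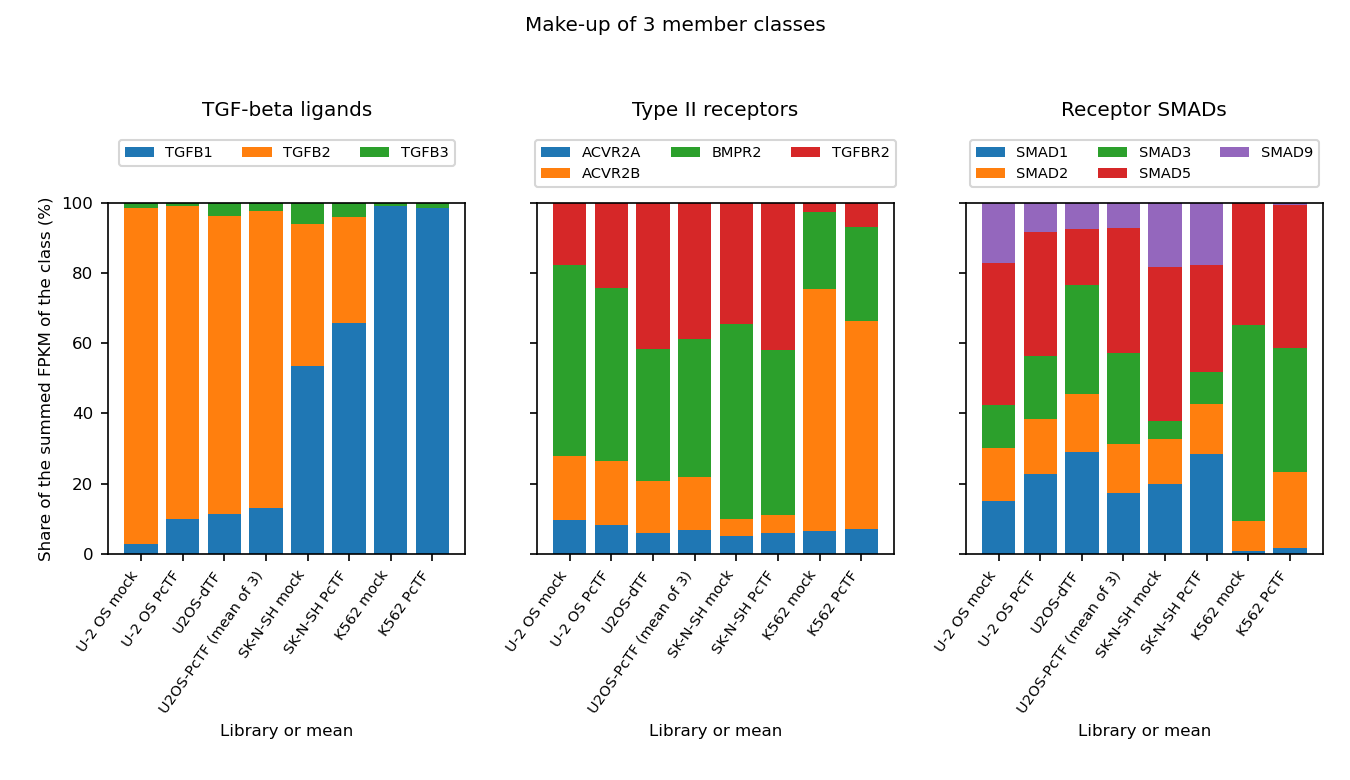
Share (%) of each gene in the summed FPKM of the TGF-beta ligands, the type II receptors and the receptor SMADs, in 7 libraries and the authors' mean of 3 PcTF libraries. TGFB2 fills 95.6% of the first class in U-2 OS mock cells and TGFB1 99.0% in K562 mock cells, and ACVR2B is the largest type II receptor share in both K562 columns.

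The first comparison asked how the pathway differed between PcTF-transfected and mock-transfected U-2 OS cells. BMP4, SMAD9, ID2, ID4 and TGFB3 were lower and TGFB1, SMAD6 and INHBE were higher. With a pseudocount of 1 FPKM, BMP4, SMAD9, ID2 and TGFB1 were still called, and ID4, TGFB3, SMAD6 and INHBE were not. Of 36 members past the filter, 5 were 2-fold lower and 3 were 2-fold higher, which is 13.9% and 8.33%, against 5.59% lower and 12% higher over the 12411 genes that passed it. The median log2 difference of the 36 members was -0.27, with 23 below 0, and that of all genes was 0.08.

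BMP4, a ligand that drives osteoblast differentiation (hg19 chr14:54416455-54423554), went from 27.9 FPKM in mock cells to 10.2 FPKM with PcTF, from an estimated 235 and 76 reads. The log2 difference was -1.44 (-1.83 to -1.06). No other BMP ligand past the filter was called. BMP5 was at 38.2 and 31.9 FPKM (log2 -0.26) and BMP2 at 16.2 and 19.9 FPKM (log2 0.29). BMP6 was at 4.44 and 2.36 FPKM (log2 -0.88) and shares exonic bases with TXNDC5, so its reads may be mixed. BMP7 was at 1.28 and 0.61 FPKM (log2 -0.96 with the added 0.1 FPKM, with an interval from -2.30 to 0.04). These values show that BMP2 moved the other way from BMP4 while neither BMP2 nor BMP5 passed the 2-fold rule. GDF11, a close relative of myostatin, was at 5.34 and 4.10 FPKM, and GDF9, an oocyte factor, at 1.80 and 1.67 FPKM. NOG, which encodes the BMP antagonist noggin, was at 7.03 and 6.36 FPKM, and BMP1, a procollagen C-proteinase rather than a ligand, at 3.24 and 3.74 FPKM.

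TGFB1 (hg19 chr19:41836812-41859831) went from 3.28 to 7.95 FPKM, a log2 difference of 1.25 (0.65 to 1.93) on 32 and 68 reads. TGFB2 was at 109 and 70.8 FPKM (log2 -0.62, -0.71 to -0.54), within 2-fold, and TGFB3, the third isoform, fell from 1.72 to 0.626 FPKM on 25 and 8 reads (log2 -1.32, -2.81 to -0.26). The share of TGFB1 in the summed TGF-beta FPKM was 2.88% in mock cells and 10.0% with PcTF, and TGFB2 still made up 89.2%. INHBE went from 0.458 to 1.46 FPKM (log2 1.48), on only 5 and 14 reads, with an interval from 0.12 to 3.50. INHBA was at 72.3 and 77.99 FPKM (log2 0.11, -0.05 to 0.27).

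Among the type I and type II receptors past the filter none was called. BMPR1A, a BMP type I receptor, was at 18.2 and 11.6 FPKM (log2 -0.65), TGFBR1, the TGF-beta type I receptor, at 18.2 and 12.6 FPKM (log2 -0.52), and BMPR2 at 60.1 and 43.6 FPKM (log2 -0.46, -0.54 to -0.39). The activin type II receptors ACVR2A and ACVR2B were at 10.6 and 7.23 FPKM (log2 -0.55) and at 20.2 and 16.0 FPKM (log2 -0.33). The counting intervals of these 5 receptors lay below 0. ACVR1, BMPR1B, ACVR1B, TGFBR2 and TGFBR3 differed by -0.18 to 0.15 on the log2 scale, with intervals that held 0.

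SMAD9, a BMP-class receptor SMAD (hg19 chr13:37418968-37494409), had the lowest log2 value of the members past the filter: 15.0 FPKM in mock cells against 5.22 FPKM with PcTF, from 392 and 119 reads, a log2 difference of -1.51 (-1.84 to -1.23). SMAD5 was at 35.6 and 22.3 FPKM (log2 -0.67, -0.82 to -0.54), whereas SMAD1 was at 13.2 and 14.4 FPKM (log2 0.13). The 3 BMP-class SMADs therefore differed by unequal amounts, and together they made up 66.5% of receptor SMAD FPKM with PcTF. SMAD2 was at 13.1 and 9.81 FPKM (log2 -0.42), SMAD3 at 10.7 and 11.3 FPKM and SMAD4, the common partner, at 12.7 and 11.8 FPKM. SMAD6, the inhibitory SMAD of the BMP arm (hg19 chr15:66994674-67074337), went from 4.42 to 9.49 FPKM (log2 1.09, 0.63 to 1.58). SMAD7, which acts on both arms, was at 3.43 and 2.79 FPKM on 48 and 34 reads (log2 -0.29), with an interval that held 0.

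The ID genes split. ID2 (hg19 chr2:8822113-8824583) went from 10.8 to 4.22 FPKM (log2 -1.33, -2.14 to -0.56) and ID4 (hg19 chr6:19837601-19842431) from 3.85 to 1.52 FPKM (log2 -1.28, -2.07 to -0.65). ID3 was at 35.4 and 20.5 FPKM (log2 -0.78, -1.25 to -0.36). ID1 was at 53.5 and 69.6 FPKM (log2 0.38, 0.10 to 0.66), so the most abundant ID gene stood on the opposite side of 0 from the other 3, and its share of the ID sum was 51.7% in mock cells and 72.6% with PcTF.

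Other values moved with this comparison. A mesenchymal marker list held COL1A1, COL1A2, COL3A1, COL5A1, RUNX2, TWIST1 and PRRX1. It summed to 505 FPKM in mock cells and 58.5 FPKM with PcTF. In both libraries 5 of 7 were at 1 FPKM or more, and COL1A2 and TWIST1 were at 0. The genes did not move together: COL1A1 was at 28.7 and 11.3 FPKM and RUNX2 at 7.30 and 7.86 FPKM. Most of the mock sum, and of its difference, lay in COL3A1, COL5A1 and PRRX1, whose single values are not given here. The list is not particular to U-2 OS, with 1899 FPKM in mock SK-N-SH, and summed to 47.2 FPKM in U2OS-dTF. An interferon-response list of 7 genes summed to 156 and 1085 FPKM. The part of either in the member values was not tested. Mock cells received no plasmid, so plasmid delivery and PcTF itself cannot be told apart in any of the transfected lines.

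**Figure D3:**
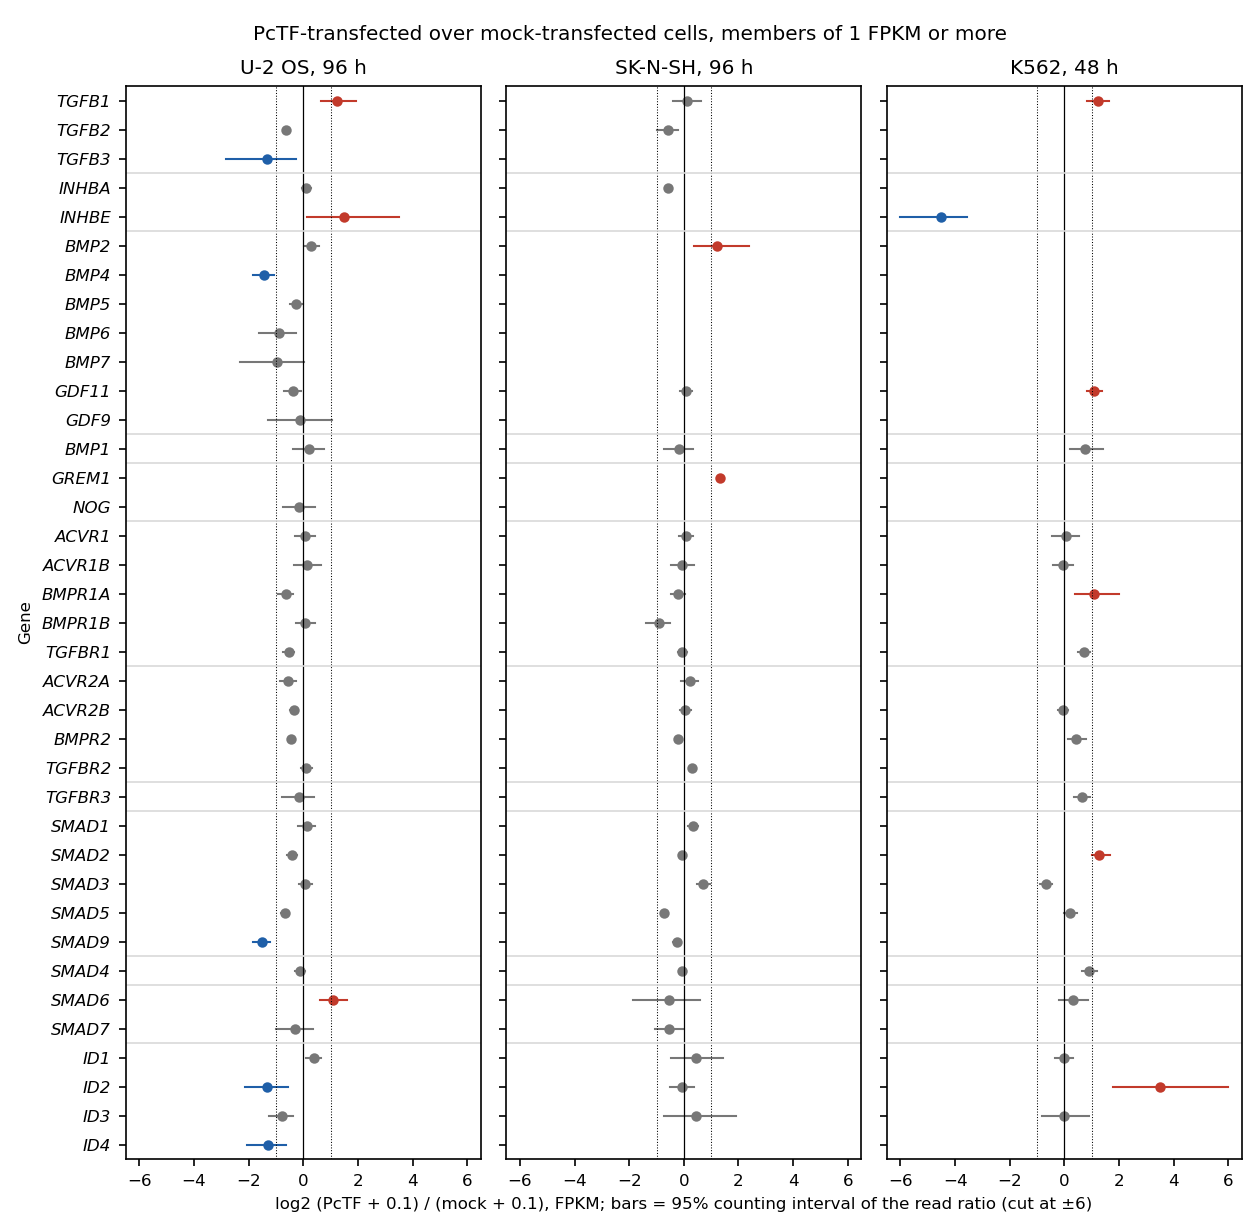
log2 ((PcTF + 0.1)/(mock + 0.1)) of FPKM for 37 members where they passed the filter, 1 panel a cell line; points are single-library comparisons, bars are exact 95% counting intervals, dotted lines mark 2-fold, and red and blue mark members called higher and lower. SMAD9 at -1.51 and BMP4 at -1.44 are the leftmost U-2 OS points, GREM1 at 1.32 is the rightmost SK-N-SH point, and ID2 at 3.51 and INHBE at -4.50 are the extremes in K562.

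In SK-N-SH few members were called. GREM1, which encodes the secreted BMP antagonist gremlin, and BMP2 were higher with PcTF and 0 members were lower. These are 2 of 28 members past the filter (7.14%) against 5.79% higher and 2.69% lower over 11954 genes, a share near the background, and the members' median log2 difference was -0.06 against 0.10 for all genes.

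GREM1 (hg19 chr15:33010205-33026870) went from 49.0 FPKM in mock cells to 122 FPKM with PcTF. It rested on 1001 and 3071 reads and had a log2 difference of 1.32 (1.22 to 1.42). BMP2 (hg19 chr20:6748745-6760910) went from 0.783 to 1.96 FPKM on 12 and 37 reads (log2 1.22, 0.35 to 2.40), so both levels were low. NOG was under 1 FPKM in both libraries.

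Of the signalling chain in SK-N-SH, BMPR1B, a second BMP type I receptor, was at 4.19 and 2.20 FPKM (log2 -0.90, -1.37 to -0.50) and SMAD5 at 65.3 and 39.6 FPKM (log2 -0.72, -0.81 to -0.63). SMAD3 was at 7.22 and 11.9 FPKM (log2 0.72, 0.49 to 0.96) and SMAD1 at 29.4 and 36.8 FPKM (log2 0.32). All 4 counting intervals left out 0, although none reached 2-fold. SMAD9 stood at 27.0 and 22.8 FPKM (log2 -0.24), and SMAD2 and SMAD4 differed by -0.06 and -0.05. INHBA was at 139.5 and 93.0 FPKM (log2 -0.58, -0.70 to -0.47) and TGFB2 at 4.28 and 2.84 FPKM (log2 -0.57, -0.98 to -0.20), while TGFB1 was at 5.69 and 6.19 FPKM (log2 0.12, -0.38 to 0.63). The other receptors past the filter lay between -0.22 (BMPR1A and BMPR2) and 0.29 (TGFBR2, at 42.3 and 51.8 FPKM). ID2 was at 14.1 and 13.5 FPKM, and ID1 and ID3 were at 3.90 and 5.35 FPKM and at 2.42 and 3.32 FPKM on few reads, with intervals that held 0. SMAD6 was at 1.11 and 0.723 FPKM, and SMAD7 at 4.79 and 3.29 FPKM (log2 -0.53, -1.05 to -0.03). GDF11 and BMP1 differed by 0.08 and -0.18. Neuroblastoma markers (7 of 8 at 1 FPKM or more, TH at 0) summed to 617 FPKM in mock cells and 597 FPKM with PcTF, and the interferon-response list to 26.6 and 186 FPKM, whose part was not tested.

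In K562 the called members were higher with PcTF apart from INHBE, but so were many genes. Of 19 members past the filter, ID2, SMAD2, TGFB1, BMPR1A and GDF11 were 2-fold higher and INHBE was 2-fold lower. That is 26.3% higher and 5.26% lower, against 28.6% and 11.7% of 11553 genes, shares close to the background. The median log2 difference was 0.43 over members and 0.37 over all genes. Relative to that shift 1 member, ID2, was 2-fold higher (log2 3.14), and INHBE (-4.87) and SMAD3 (-1.03) were 2-fold lower.

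ID2 went from 0.368 to 5.23 FPKM, a log2 difference of 3.51 that rested on 2 reads in mock cells and 42 with PcTF, with an interval from 1.79 to 6.82. INHBE (hg19 chr12:57849096-57851791) went from 7.65 to 0.242 FPKM on 80 and 4 reads (log2 -4.50, -6.89 to -3.57). Both genes were called the other way in U-2 OS. TGFB1 went from 7.17 to 16.9 FPKM (log2 1.23, 0.84 to 1.64) on 67 and 249 reads, and was the 1 member that was higher in more than 1 line. TGFB1 still made up 98.4% of the TGF-beta FPKM in PcTF-transfected K562 cells.

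SMAD2 went from 1.99 to 5.00 FPKM (log2 1.29, 1.00 to 1.66), SMAD4 was at 3.79 and 7.13 FPKM (log2 0.89) and SMAD3 at 12.9 and 8.13 FPKM (log2 -0.66, -0.88 to -0.45). The share of SMAD3 in receptor SMAD FPKM was 55.9% in mock cells and 35.4% with PcTF, and that of SMAD2 was 8.63% and 21.8%. These 2 SMADs of the TGF-beta arm thus differed in opposite directions. GDF11 (hg19 chr12:56137064-56211540), went from 3.67 to 7.85 FPKM (log2 1.08, 0.82 to 1.37), and shares exonic bases with SARNP. BMPR1A (hg19 chr10:88516396-88684945) went from 1.13 to 2.53 FPKM on 18 and 64 reads (log2 1.10, 0.40 to 2.01). TGFBR1 was at 8.14 and 13.5 FPKM (log2 0.72), TGFBR3 at 4.94 and 7.71 FPKM (log2 0.63), BMP1 at 2.03 and 3.51 FPKM (log2 0.76) and BMPR2 at 2.11 and 2.88 FPKM (log2 0.43).

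Several abundant K562 members hardly differed before that shift is taken into account. ID1 was at 35.4 and 35.5 FPKM (log2 0.00, -0.33 to 0.32), ID3 at 5.78 and 5.73 FPKM, ACVR2B at 6.63 and 6.39 FPKM, ACVR1B at 5.15 and 4.97 FPKM and ACVR1 at 4.66 and 4.81 FPKM. SMAD5 and SMAD6 were at 8.02 and 9.35 FPKM and at 3.75 and 4.74 FPKM. Erythroid markers, all 8 at 1 FPKM or more in both libraries, summed to 4618 FPKM in mock cells and 15840 FPKM with PcTF. The interferon-response list summed to 48.8 and 19.4 FPKM, but its count went the other way. In mock cells 1 of 7 genes was at 1 FPKM or more, and with PcTF 4 were. The part of either list was not tested.

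Across the 3 transfected lines, 25 of the 38 members past the filter in at least 1 line (65.8%) were called in none, against 55.7% of 14837 genes. Of the 28 members past it in at least 2 lines, 1 (3.57%), TGFB1, was higher in 2 lines and 0 were lower in 2, against 6.07% and 1.03% of 11889 genes. The K562 call of TGFB1 was lost relative to the shift of all genes (log2 0.86). Of the members called in U-2 OS, BMP4 and ID4 were listed at 0 in both K562 libraries and SMAD9 was at 0 and 0.128 FPKM there.

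The last comparison set the PcTF libraries of U-2 OS background against U2OS-dTF. All 4 type II receptors, 4 of 5 type I receptors past the filter, SMAD4, SMAD5, and the ligands BMP2, BMP5, BMP6 and GDF9 were higher with PcTF, together with BMP1, while ID1 and GREM1 were lower. Of 36 members past the filter, 15 were higher (41.7%) and 2 were lower (5.56%), against 36.1% and 14.5% of 13022 genes, so the share that was higher is near the background of this comparison. The median log2 difference was 0.40 over members and 0.52 over all genes, and relative to that shift 9 members were higher and 6 lower, the receptors among the 9 being ACVR1, BMPR1A, ACVR2A and BMPR2. The mean of the 2 stable libraries alone, derived from the deposited mean by removing the transfected library, gave 15 higher and 2 lower, with a median of 0.54, against 37% and 13.5% of all genes. The deposited table holds no spread between the libraries of the mean.

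BMPR2 (hg19 chr2:203241050-203432474) was at 14.9 FPKM in U2OS-dTF and 44.3 FPKM in the authors' mean, a log2 difference of 1.56, and was at 60.1 FPKM in mock-transfected U-2 OS. ACVR1, a BMP and activin type I receptor (hg19 chr2:158592958-158732374), was at 2.07 FPKM in U2OS-dTF, 14.4 FPKM in the mean (log2 2.74) and 10.8 FPKM in mock cells. BMPR1A was at 4.14 FPKM in U2OS-dTF, 16.6 FPKM in the mean (log2 1.98) and 18.2 FPKM in mock cells. For all 3 receptors, the U2OS-dTF library was the low one and mock cells without any transgene stood near the PcTF values. U2OS-dTF was also lowest for ACVR2A (2.38, 7.65 and 10.6 FPKM, log2 1.64), ACVR2B (5.90, 17.0 and 20.2 FPKM, log2 1.51), SMAD5 (10.9, 28.9 and 35.6 FPKM, log2 1.40) and SMAD4 (5.33, 13.1 and 12.7 FPKM, log2 1.28). ACVR2A shares exonic bases with ORC4.

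BMP5, BMP1 and GDF9 were also lowest in U2OS-dTF, with mock values near those of the mean. BMP5 was at 11.1 FPKM in U2OS-dTF, 37.95 FPKM in the mean (log2 1.76) and 38.2 FPKM in mock cells, and the protease BMP1 at 0.311, 3.91 (log2 3.29) and 3.24 FPKM. GDF9 was listed at 0 in U2OS-dTF, where 0 reads allow up to 0.285 FPKM, and at 2.18 and 1.80 FPKM in the mean and in mock cells. BMP2 was at 2.17 FPKM in U2OS-dTF and 9.60 FPKM in the mean (log2 2.10), but at 4.47 FPKM in the 2 stable libraries (log2 1.01), with the transfected library at 19.9 FPKM and mock cells at 16.2 FPKM. BMP6 was at 0.365 FPKM in U2OS-dTF, 1.61 FPKM in the mean (log2 1.88), 1.24 FPKM in the stable libraries and 4.44 FPKM in mock cells, so that for BMP2 and BMP6 the mock library stood above the stable ones.

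Of 36 members past the filter, U2OS-dTF against mock had 14 lower (38.9%) and 3 higher (8.33%), namely BMP4, ID1 and SMAD7. Over 12660 genes these shares were 32% and 28.1%. The comparison shares the U2OS-dTF library with the one above, and its columns were scaled separately. The effect of dTF, the stable line and doxycycline cannot be told apart in that library. TGFBR2 (hg19 chr3:30647994-30735633) was instead high in the stable U2OS-PcTF libraries, at 55.2 FPKM, 2-fold above mock as well. It was at 16.5 FPKM in U2OS-dTF and 19.7 FPKM in mock cells. The authors' mean was at 43.9 FPKM (log2 1.40 over U2OS-dTF), while the PcTF-transfected library in that mean was at 21.3 FPKM, near mock cells. TGFBR1 was at 10.2 FPKM in U2OS-dTF and 23.2 FPKM in the mean (log2 1.17), with 28.5 FPKM in the stable libraries and 18.2 FPKM in mock cells. BMPR1B was at 3.49, 7.90 (log2 1.16) and 5.60 FPKM in U2OS-dTF, the mean and mock cells.

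ID1 (hg19 chr20:30193086-30194317) was at 115 FPKM in U2OS-dTF and 48.6 FPKM in the mean (log2 -1.25), with 53.5 FPKM in mock cells, so U2OS-dTF was again the library that stood apart. GREM1 was at 1.53 FPKM in U2OS-dTF, 0.299 FPKM in the mean (log2 -2.03) and 0.989 FPKM in mock cells, all low levels. BMP4 was high in both stable backgrounds: 99.5 FPKM in U2OS-dTF and 120 FPKM in the stable U2OS-PcTF libraries, against 27.9 FPKM in mock-transfected U-2 OS and 10.2 FPKM after PcTF transfection. The transient difference in BMP4 was thus not seen between the stable lines (log2 0.27 for the stable libraries over U2OS-dTF), and both lines stood above the mock library.

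The other members past the filter were within 2-fold of U2OS-dTF. TGFB1 was at 6.39 FPKM in U2OS-dTF and 8.25 FPKM in the mean, TGFB2 at 47.6 and 53.4 FPKM, TGFB3 at 2.08 and 1.56 FPKM and INHBA at 71.5 and 50.7 FPKM. SMAD1, SMAD2, SMAD3 and SMAD9 lay between -0.50 and 0.20 on the log2 scale, with SMAD9 at 5.16 and 5.96 FPKM against 15.0 FPKM in mock cells. SMAD6 was at 3.03 and 5.61 FPKM (log2 0.87), SMAD7 at 8.09 and 5.22 FPKM (log2 -0.62) and ACVR1B at 4.24 and 6.74 FPKM (log2 0.66). ID2 was at 6.84 FPKM in U2OS-dTF against 5.39 FPKM in the mean, ID3 at 22.2 against 17.8 FPKM and ID4 at 4.23 against 2.20 FPKM. BMP7, NOG, GDF11 and TGFBR3 differed by -0.09 to 0.43.

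**Figure D4:**
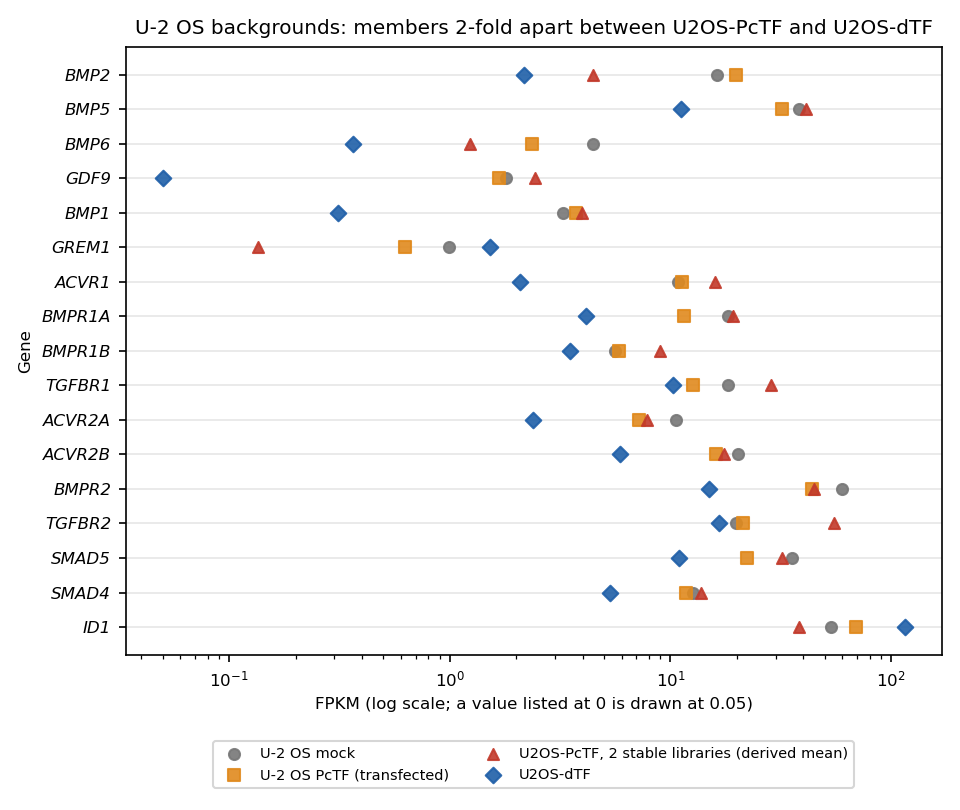
FPKM (log scale) in U-2 OS mock, U-2 OS PcTF, U2OS-dTF and the derived mean of the 2 stable U2OS-PcTF libraries, for the 17 members 2-fold apart between U2OS-PcTF and U2OS-dTF; a value listed at 0 is drawn at 0.05. For ACVR1 the diamond of U2OS-dTF sits at 2.07 FPKM and the other 3 points between 10.8 and 16.0 FPKM.

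With mock-transfected cells as the control, the 2 stable libraries had 7 of 35 members higher (ACVR1B, BMP4, BMP7, NOG, SMAD3, TGFB1 and TGFBR2). Another 5 were lower (BMP2, BMP6, ID3, SMAD9 and TGFB2). That is 20% and 14.3%, against 27.3% and 7.69% of 13030 genes. The median log2 difference was 0.10 over members and 0.40 over all genes, and the columns compared were scaled separately. SMAD9 was at 6.33 FPKM and TGFB1 at 8.41 FPKM in the stable libraries. U2OS-dTF was near both, at 5.16 and 6.39 FPKM, so for these 2 genes mock cells, at 15.0 and 3.28 FPKM, stood apart. This comparison shares its mock library with that of the transfected cells. The authors' mean of 3 over that library gave 3 of 35 higher (BMP4, TGFB1 and TGFBR2) and 3 lower (BMP6, SMAD9 and TGFB2). That is 8.57% each way, against 22.5% and 4.83% of 12954 genes.

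Genes that act around these members were read from a list of 58 further pathway genes. In U-2 OS, of the 38 past the filter, 4 were higher, among them ENG, JUNB and MSX1, and 5 were lower, namely FST, SOSTDC1, LTBP1, COL1A1 and HEY1 (against the 12% and 5.59% above), with a median log2 difference of 0.09. The BMP antagonist SOSTDC1 was at 145 FPKM in mock cells and 7.00 FPKM with PcTF (log2 -4.35), LTBP1, which stores latent TGF-beta in the matrix, at 31.2 and 6.20 FPKM (log2 -2.31), and the activin antagonist FST at 37.6 and 9.45 FPKM (log2 -1.98). U2OS-dTF, without PcTF, was also far below mock cells for these genes. SOSTDC1 was listed at 0 there, LTBP1 was at 2.15 FPKM and FST at 7.19 FPKM. The BMP-inducible homeobox gene MSX1 was at 0.827 and 3.50 FPKM (log2 1.96) and JUNB, an early TGF-beta target, at 4.06 and 14.0 FPKM (log2 1.76). The genes given with values here were named because their differences were the largest of the list. Their size can therefore not be set against that of the receptors. Of the 8 ligands, antagonists and coreceptors of the list past the filter in U-2 OS, 1 was higher and 2 were lower.

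In SK-N-SH, 5 of 39 list genes were higher and 0 lower (all genes 5.79% and 2.69%), with a median of 0.07. BMPER, a secreted BMP modulator, was at 1.24 and 19.6 FPKM (log2 3.88). FST was at 12.8 and 27.3 FPKM (log2 1.09) and SOSTDC1 at 5.31 and 11.2 FPKM (log2 1.06). Both were called in the opposite direction to that in U-2 OS. Like GREM1 and BMPER they are extracellular regulators, but others were not called, such as FSTL1 (log2 0.06) and TWSG1 (log2 -0.20). Of the 10 ligands, antagonists and coreceptors of the list past the filter, 3 were higher. The median of these 10 was 0.10, near the 0.10 of all genes. In K562, 13 of 33 list genes were higher and 6 lower (all genes 28.6% and 11.7%), with a median of 0.74. The osteoblast factor RUNX2 was at 9.13 and 0.128 FPKM (log2 -5.34), and SOST, which encodes the WNT and BMP antagonist sclerostin, at 0.102 and 3.28 FPKM (log2 4.07). Over U2OS-dTF, 19 of 39 list genes were higher and 3 lower (all genes 36.1% and 14.5%), with a median of 0.91. The higher genes included 7 of 8 expressed latency and activation genes. Among them, ITGB8, the integrin chain that helps to release latent TGF-beta, was at 0.986 and 18.1 FPKM (log2 4.06). Outside that class, FN1, which encodes fibronectin, was at 15.1 and 124 FPKM (log2 3.04). The largest difference of the list was that of SOSTDC1, listed at 0 in U2OS-dTF and at 11.8 FPKM in the mean (log2 6.90), with 145 FPKM in mock cells. Mock-transfected U-2 OS was at 19.3 FPKM for ITGB8, near the PcTF mean, and at 31.2 FPKM for LTBP1, well above the 2.15 FPKM of U2OS-dTF and the 7.03 FPKM of the mean.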

How the data were processed

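Per the labels and the methods of the study, amplified cDNA from total RNA was sequenced as single-end reads, checked with FastQC, trimmed and aligned to hg19 with TopHat2 2.1.0 and Bowtie2. Cuffdiff, run by the authors, gave the deposited FPKM values, scaled to gene length and library depth. The strand setting was not given in the sources used here. Deposited columns of fold changes, p-values and q-values compare the same groups and were not used. Of 10 libraries 9 were used, and the library labelled as U-2 OS transfected with the dTF plasmid was not analysed here. The methods describe more replicates of the stable lines than the labels give, and the labels were followed.

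Analysis was in Python 3.11.15 with pandas 2.3.3 and scipy 1.17.1. FPKM differences used a pseudocount of 0.1 and a filter of 1 FPKM, and the same 2-fold rule was applied to all genes for the background. Depth came from the step between low FPKM of 662 single-exon genes (97.6% to 99.2% of low values whole within 3%). Member reads were estimated from FPKM, depth and the GENCODE v44lift37 canonical transcript, with fragments assumed at 200 bp (SD 80 bp), and of 78 member values of 10 reads or fewer 61 were within 0.1 of a whole number. The mean of the stable libraries was derived as 3 times the deposited mean less the transfected library, over 2. Of 16049 genes detected in the transfected library, 325 had a mean equal to its value divided by 3 (within 0.01%), and 10 had a mean more than 1% below that. Starts in the files count from 0, so 1 was added. Every member of 1 FPKM or more in any column was named, apart from 1 that is not reported here, like 1 gene of the pathway list. The members, the list of 58 pathway genes and the marker lists were chosen with earlier results of these data known. Alternatives were another pseudocount, fold and filter, centring, the stable libraries alone and another control.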

Additional observations from a re-analysis of the deposited data

Results flagged for a closer look

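ID2 and INHBE were each called in opposite directions in 2 of the cell lines. The log2 difference of ID2 was -1.33 in U-2 OS and 3.51 in K562. That of INHBE was 1.48 in U-2 OS and -4.50 in K562. The difference between the lines was not tested, each side being 1 library against 1, and the times of collection differed (96 h and 48 h). Few reads lay behind some of these values, with 2 reads of ID2 in the K562 mock library. INHBE had 5 and 14 reads in mock and PcTF-transfected U-2 OS, and 80 and 4 reads in mock and PcTF-transfected K562.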

How the results depend on the processing

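No paired analysis was possible because each value column is 1 library or an authors' mean and the groups compared share fewer than 2 replicate numbers. In U-2 OS, a pseudocount of 1 FPKM gave 1 member higher and 3 lower, no filter gave 5 and 8, and a fold of 1.5 gave 11 lower. In SK-N-SH, a pseudocount of 1 gave 1 higher, no filter gave 5 higher and 2 lower, centring on the median of all genes gave 1 lower and a fold of 1.5 gave 3 lower. In K562, a pseudocount of 1 gave 3 higher, no filter 14 higher and 2 lower, centring 1 higher and 2 lower, and a fold of 1.5 gave 9 higher and 2 lower. For U2OS-PcTF over U2OS-dTF, a pseudocount of 1 gave 1 lower, centring gave 9 higher and 6 lower with a median of -0.12, and a fold of 1.5 gave 4 lower. Without filter or at a lower fold more genes could pass, and a larger pseudocount shrinks low values by construction. Centring subtracts the median of all genes from every value, which was 0.10 in SK-N-SH, 0.37 in K562 and 0.52 over U2OS-dTF. For the other settings the cause was not tested. Without the transfected library that comparison gave 15 higher, 2 lower and a median of 0.54. Chosen after seeing the data, the U-2 OS mock library as control gave 3 higher, and the stable libraries alone over mock gave 7 higher and 5 lower. Against mock, the sign of 16 of 36 members turned, 8 of them called over U2OS-dTF and 8 not. The called ones had log2 values of -0.46 (ACVR2A), -0.25 (ACVR2B), -0.75 (BMP2), -0.0096 (BMP5), -1.41 (BMP6), -0.13 (BMPR1A), -0.44 (BMPR2) and -0.30 (SMAD5), and the cause was not tested. Among single members, the pseudocount of 1 moved 5 of 119 values and leaving out the transfected library 3 of 36, with 4 members that were not called changing sign. At this depth, members under about 10 reads carry wide intervals, and without replicates the spread between cultures is unknown.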
